A study of Mus musculus with 6 samples.

Results

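The ribosome biogenesis and nucleolar genes are a named set of 40 genes that make, modify and assemble the ribosome, taken from the 55487 genes counted in embryonic mouse retina. Members were found by gene symbol, and all 40 were present and passed the filter on low counts, which left 17275 genes. No measured value entered the choice rule, although the set was named with earlier results of these data known. Retinas were taken at embryonic day 16.5 from C57BL/6 embryos of 1 litter, with both eyes of an animal combined, giving 3 libraries labelled cKO (Foxp1 fl/fl with Six3-Cre) and 3 labelled control (Foxp1 fl/fl without Cre). All animals carried the floxed alleles of Foxp1, a forkhead transcription factor, and Six3 sequence, known to work in the early eye field and retina, drove the Cre. Only the cKO animals carried Cre, so an effect of Cre itself and an effect of deletion cannot be told apart.

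Ribosomes are built in the nucleolus, where RNA polymerase I transcribes a long precursor of the ribosomal RNAs. Small nucleolar RNA-protein particles guide chemical modification of the precursor, box C/D particles placing methyl groups and box H/ACA particles converting uridine to pseudouridine. A large assembly called the small subunit processome and a separate set of large subunit factors then fold and cut the precursor while ribosomal proteins join. Dividing cells, such as the progenitors of the embryonic retina, use this pathway heavily, and the Myc family of transcription factors is known to promote it through the E-box sequence CACGTG.

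The labels need care before any direction is read. Foxp1 (ENSMUSG00000030067, on the minus strand of mm10 chromosome 6 at 98925338 to 99522721) was counted 1850, 1816 and 1742 times in the cKO-labelled libraries 1, 2 and 3, against 1213, 1019 and 1096 times in the control-labelled libraries 1, 2 and 3. The targeted gene was thus higher in all libraries labelled cKO (log2 fold change 0.65, standard error 0.07, edgeR adjusted p 4.63e-05), against the direction of a knockout label. Which exons are deleted was not stated in the labels, and the count covers the whole gene. For cKO against control, the authors' deposited table holds a log2 fold change of -0.60 for Foxp1, and its sign is the opposite of that from the labelled counts for 37 of the 40 members. Sex-linked genes go against the labelled sex in the libraries labelled cKO 2 and control 2. Xist had 15165, 14143 and 1 counts in cKO-labelled libraries 1, 2 and 3, against 17599, 13 and 5 in the control-labelled ones. Counts of the Y-linked Ddx3y were 0, 0 and 899 against 0, 802 and 871 in the same order. The sexes read from these counts in each group, in replicate order, were those labelled for the other group. Whether the groups as wholes or single libraries were exchanged was not tested. Every direction below is therefore that of the libraries as labelled. Depth was 23707761 to 25714620 counts per library, and the members took 0.367% to 0.370% of the counts in libraries labelled cKO and 0.361% to 0.368% in those labelled control. In whole-retina RNA, fewer cells of a type and less RNA per cell cannot be told apart. Progenitor markers, 10 of 10 tested, summed to 8315 to 8676 CPM (counts scaled by library size) in libraries labelled cKO and 8408 to 8656 CPM in those labelled control. Lens markers, 10 of 10 with a negative log2 fold change, summed to 19.0 to 265 CPM in libraries labelled cKO and 64.2 to 949 CPM in those labelled control. Endothelial markers, the 4 tested of 6 listed, summed to 297 to 306 CPM in libraries labelled cKO and 327 to 353 CPM in those labelled control, with Kdr making up most of the sum. Of the 4 endothelial genes that could be tested, 2 (Kdr and Cldn5) had negative and 2 (Pecam1 and Cdh5) positive log2 fold changes. Log2 fold changes were also negative for 8 of 8 pigment epithelium, 6 of 6 microglia and 6 of 6 skeletal muscle markers tested, and positive for 5 of 5 erythroid markers tested, with none past the threshold. Their summed CPM ranges overlapped between the groups. Of 13 retinal neuron markers 2 passed, beside 0.781% of all tested genes. They were Tfap2b (log2 fold change -0.25, edgeR adjusted p 0.0329) and Prox1 (-0.24, adjusted p 0.0172). Both are genes of amacrine or horizontal cells and were lower in libraries labelled cKO. With offsets that take out the trend on summed exon length, 0 of the 13 passed, beside 0.220% of all tested genes. Of the 13, 6 had an unadjusted p under 0.05, 2 higher and 4 lower, beside 16.5% of all tested genes. In all, 7 of the 13 had a positive log2 fold change, and the median was 0.03. The 13 summed to 2409 to 2510 CPM in libraries labelled cKO and 2398 to 2445 CPM in those labelled control. The part of any of these markers' cells in the member differences was not tested.

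Across the set, member levels in libraries labelled cKO lay close to those in libraries labelled control, and Cmss1 alone passed the test. That is 1 of 40 members, higher in libraries labelled cKO, beside 0.781% of all tested genes called in either direction, 0.295% called higher and 0.486% called lower. The log2 fold changes of the members, labelled cKO over labelled control, ran from -0.26 for Polr1a to 0.37 for Cmss1, with 21 positive and 19 negative. Their median was 0.0075, beside 0.00073 over all tested genes, of which 8661 were positive. In 34 of the 40 members (85%) the difference was under 1.1-fold in either direction, as it was in 79.0% of the 8508 tested genes within the members' range of mean CPM. The 95% interval of the fold change stayed inside 1.25-fold in both directions for 36 members, and the exceptions were Cmss1, Rrs1, Polr1a and Utp20. It also did so for 7684 of the 8508 tested genes within the members' range of mean CPM.

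**Figure D1:**
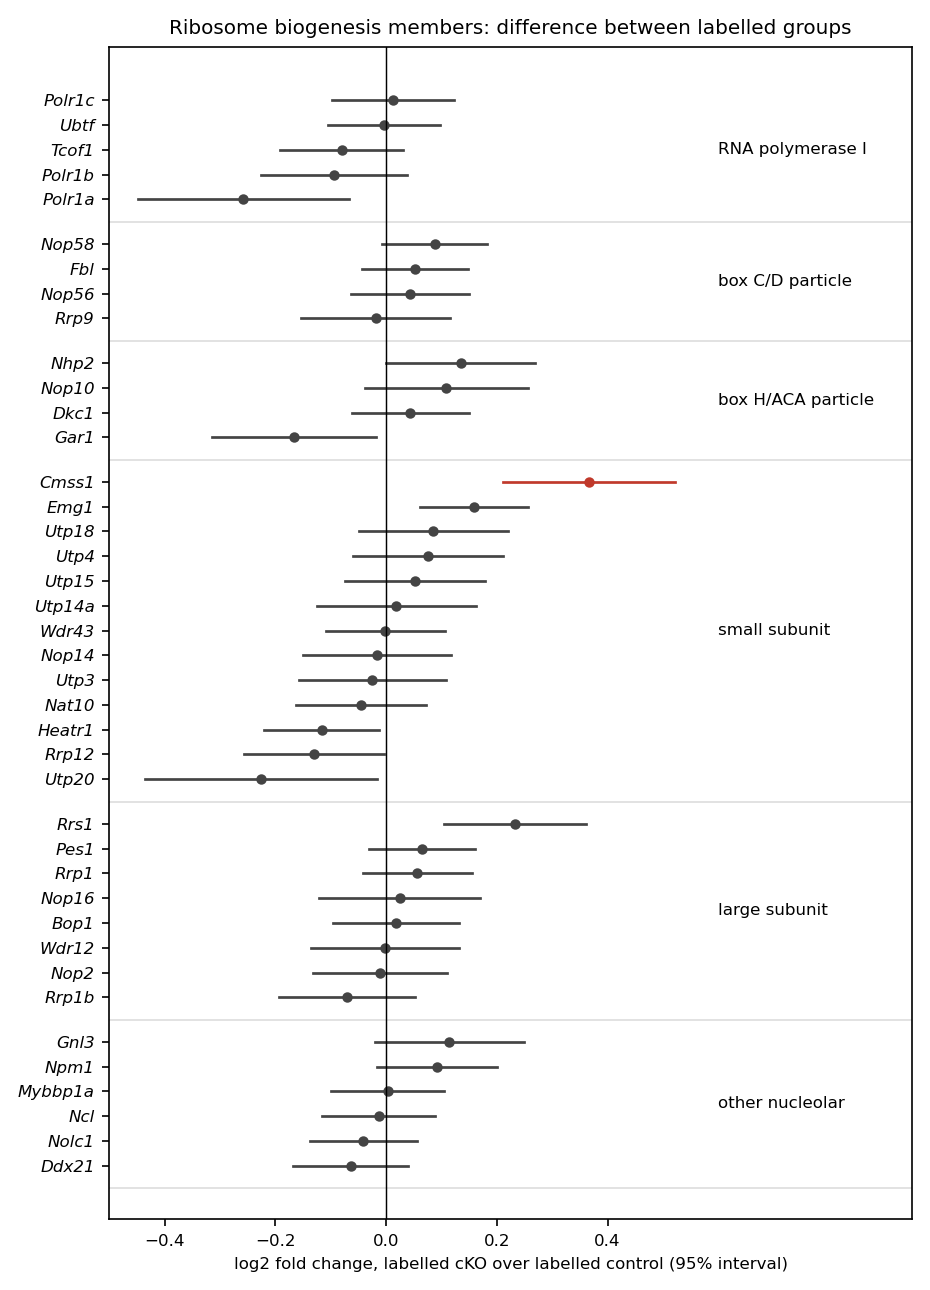
Log2 fold change of each member, libraries labelled cKO over libraries labelled control (x axis), with points for the edgeR estimate and lines for its 95% interval, grouped by role down the page. Cmss1, in red, passed an adjusted p of 0.05 (n = 3 libraries a group), and 32 of the 40 intervals hold 0.

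At an unadjusted p under 0.05 there were 8 members (20%), 3 higher and 5 lower in libraries labelled cKO, beside 16.5% of all tested genes (7.83% higher and 8.64% lower). Of the 8508 tested genes within the members' range of mean CPM, 25.4% had an unadjusted p under 0.05. The groups did not overlap for 10 members that were higher in libraries labelled cKO and 3 that were lower, beside 10.8% and 9.30% of all tested genes. In either direction that was 32.5% of members, beside 20.1% of all tested genes and 27.2% of those within the members' range of mean CPM. The number of members past the threshold depended on single libraries. It was 4 without the library labelled control 3 (Cmss1, Polr1a, Rrs1 and Utp20), and 0 without the library labelled control 1, control 2, cKO 2 or cKO 3. Over all genes the calls numbered 778 without control 3 and 19 to 34 without each of those 4 libraries, against 135 with every library. With those libraries left out, edgeR gave 6, 5, 4 and 5 members at an unadjusted p under 0.05.

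Cmss1, a little-studied gene named for its resemblance to a yeast factor of small ribosomal subunit assembly, was the one member past the threshold. The gene (ENSMUSG00000022748, chromosome 16, 57302000 to 57606864, minus strand, mm10) had 21.5, 21.8 and 22.2 CPM in the cKO-labelled libraries 1, 2 and 3, against 16.6, 16.4 and 17.8 CPM in the control-labelled libraries 1, 2 and 3. Every library labelled cKO lay above every library labelled control, with 550, 524 and 561 counts in libraries labelled cKO and 396, 407 and 422 counts in those labelled control. The means were 21.8 ± 0.32 CPM in libraries labelled cKO and 16.9 ± 0.76 CPM in those labelled control (SD, n = 3 each), and the fitted ratio was 1.29 (log2 0.37 with standard error 0.08, edgeR adjusted p 0.0315). The fold change held its sign in the alternatives that gave it an adjusted p, at 0.29 to 0.41 on the log2 scale. Cmss1 no longer passed when a library was left out, be it control 1 (edgeR adjusted p 0.0831) or 2 (0.130), or cKO 2 (0.175) or 3 (0.110), nor without the pair with sex-linked genes at odds with the labels (0.714, the highest over the alternatives, which began at 0.00357). In the authors' deposited table Cmss1 stands at a log2 fold change of -0.38 for cKO against control with a p-value of 0.000807, and it has no adjusted p there.

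The 250 bases before the Cmss1 start and the first 10 after it are shown because this is the one member that passed (RefSeq, GRCm38.p6, chr16:57606858-57607117, minus strand, written 5′ to 3′ along the gene). The capitals mark TGACGTCA, a palindrome known as the full cAMP response element, which lies across the RefSeq start. By the gene position given above, the gene starts at 57606864, downstream of the capitals.
Cmss1: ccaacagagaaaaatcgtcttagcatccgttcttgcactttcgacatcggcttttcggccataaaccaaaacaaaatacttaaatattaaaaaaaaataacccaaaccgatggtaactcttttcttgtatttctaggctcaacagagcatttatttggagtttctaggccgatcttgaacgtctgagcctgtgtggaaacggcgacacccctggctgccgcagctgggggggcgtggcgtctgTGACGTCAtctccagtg
This motif was chosen after the sequence was seen. It occurs in the start windows (250 bases before to 50 after) of 2.03% of 27025 genes, and in 1 of the 34 members with a window. The forkhead sequence TGTTTAC, searched on both strands, was absent from the Cmss1 window and present in that of 1 member, Rrp1b, beside 4.05% of all genes. No window was listed for Fbl, Tcof1, Rrs1, Bop1, Rrp12 and Npm1.

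The E-box CACGTG occurred in the start windows of 7 of the 34 members (20.6%), beside 8.09% of all genes. These windows are shown because the E-box is the sequence through which Myc is known to act on this pathway. Capitals mark the E-box, which reads the same on both strands, with up to 12 bases on either side (RefSeq, GRCm38.p6, 5′ to 3′ along the gene).
Mybbp1a, chr11:72441355-72441376, plus strand: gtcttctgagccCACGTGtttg
Nop2, chr6:125131811-125131840, plus strand: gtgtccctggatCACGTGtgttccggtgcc
Pes1, chr11:3963965-3963994, plus strand: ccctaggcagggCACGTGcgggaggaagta
Utp18, chr11:93885769-93885798, minus strand: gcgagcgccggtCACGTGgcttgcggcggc
Utp20, chr10:88826765-88826789, minus strand: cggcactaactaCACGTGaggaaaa
Utp4, chr8:106893643-106893672, plus strand: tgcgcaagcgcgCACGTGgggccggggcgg
Wdr43, chr17:71616220-71616249, plus strand: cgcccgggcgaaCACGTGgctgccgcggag
None of the 7 genes passed the test. Their log2 fold changes were 0.0030 for Mybbp1a, -0.01 for Nop2, 0.07 for Pes1, 0.09 for Utp18, -0.23 for Utp20, 0.08 for Utp4 and -0.0016 for Wdr43. Mycn, the Myc family gene of neural progenitors, had 224, 204 and 204 CPM in the cKO-labelled libraries 1, 2 and 3, against 225, 197 and 205 CPM in the control-labelled libraries 1, 2 and 3. Myc itself was low, at 13.1 ± 1.13 CPM in libraries labelled cKO and 15.6 ± 1.46 CPM in those labelled control (SD, n = 3 each), and its log2 difference was -0.25 (edgeR adjusted p 0.181). Of 10 genes of the Myc network tested, 0 passed in edgeR, and 3 had an unadjusted p under 0.05, all lower in libraries labelled cKO, beside 16.5% of all tested genes in either direction and 8.64% lower. Among tested genes within the members' range of mean CPM, that share was 25.4% in either direction.

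The RNA polymerase I group held the member with the lowest fold change. Polr1a, the largest subunit of the enzyme, had 84.3, 76.8 and 74.4 CPM in the cKO-labelled libraries 1, 2 and 3, against 106, 92.1 and 83.7 CPM in the control-labelled libraries 1, 2 and 3. The groups overlapped, since the library labelled control 3 lay just below cKO 1. The log2 fold change was -0.26 (standard error 0.08, edgeR adjusted p 0.174). With control 3 left out it was -0.33 (edgeR adjusted p 0.00674), and with control 1 left out -0.16 (adjusted p 0.277). The authors' deposited table gives Polr1a a log2 fold change of 0.32 and an adjusted p of 0.00146, the 1 member called there of 37 with an adjusted p, beside 8.97% of the genes with one.

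The other 4 genes of the RNA polymerase I group differed less. Polr1b, the second largest subunit, was at 39.3 ± 0.96 CPM in libraries labelled cKO and 41.9 ± 2.21 CPM in those labelled control (SD, n = 3 each). Polr1c, a subunit shared with RNA polymerase III, had a log2 fold change of 0.01. Ubtf, the factor that binds and opens the ribosomal DNA, was at 257 ± 2.56 CPM in libraries labelled cKO and 257 ± 2.76 CPM in those labelled control (SD, n = 3 each). Treacle, the product of Tcof1 that helps RNA polymerase I transcription, had a log2 fold change of -0.08 in its gene (interval -0.19 to 0.03).

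The box C/D genes varied little. Fbl, the methyltransferase of these particles, had 101, 103 and 103 CPM in the cKO-labelled libraries 1, 2 and 3, against 93.2, 99.6 and 103 CPM in the control-labelled libraries 1, 2 and 3, so the groups overlapped. Nop58, a scaffold protein of the same particles, had 120, 129 and 123 CPM in libraries labelled cKO, against 114, 116 and 120 CPM in those labelled control. Its groups did not overlap, and its log2 fold change of 0.09 did not pass (standard error 0.05, edgeR adjusted p 0.351). Nop56, the partner scaffold, stood at a log2 fold change of 0.04 and Rrp9, a protein of the particle that guides early precursor cuts, at -0.02.

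The 4 proteins of the box H/ACA particle did not share a direction. Gar1 had 23.7, 23.4 and 24.7 CPM in the cKO-labelled libraries 1, 2 and 3, against 28.5, 25.6 and 26.6 CPM in the control-labelled libraries 1, 2 and 3, with no overlap (log2 fold change -0.17, standard error 0.07, edgeR adjusted p 0.239). Nhp2 ran the other way, with 46.2, 45.6 and 44.3 CPM in libraries labelled cKO against 37.6, 42.1 and 44.2 CPM in those labelled control (log2 fold change 0.13, standard error 0.07, edgeR adjusted p 0.307). Its groups were separated by less than 1 CPM, between the libraries labelled cKO 3 and control 3, and without control 1 its log2 fold change was 0.07 (edgeR adjusted p 0.779). Dkc1, the pseudouridine synthase of the particle, had a log2 fold change of 0.04 (interval -0.06 to 0.15) and Nop10 of 0.11 (interval -0.04 to 0.26).

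Small subunit genes other than Cmss1 had fold changes on both sides of 0. Of the 13, Cmss1 included, 5 had an unadjusted p under 0.05, beside 16.5% of all tested genes. The share was 25.4% of tested genes within the members' range of mean CPM. Emg1, a methyltransferase of the small subunit RNA, had 78.9, 84.98 and 83.8 CPM in the cKO-labelled libraries 1, 2 and 3, against 71.8, 73.9 and 76.3 CPM in the control-labelled libraries 1, 2 and 3. The groups did not overlap, and the log2 fold change was 0.16 (standard error 0.05, edgeR adjusted p 0.0912). Of the exonic bases of Emg1, 7.21% overlap Lpcat3 on the opposite strand, and the labels do not state whether counting used the strand. Utp20, a very large scaffold protein of the processome, had 51.9, 46.7 and 48.6 CPM in libraries labelled cKO and 63.6, 60.3 and 48.4 CPM in those labelled control. Its log2 fold change was -0.23 (standard error 0.09, edgeR adjusted p 0.263), and the library labelled control 3 lay among those labelled cKO. The log2 fold change of Utp20 was -0.33 without that library (edgeR adjusted p 0.00324), -0.15 without control 1 (adjusted p 0.563) and -0.14 with labelled sex as a covariate (adjusted p 0.296). Labelled sex goes against the sex-linked genes in the libraries labelled cKO 2 and control 2. That covariate is therefore not sex as read from the counts.

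Heatr1, another large repeat protein of the processome that also takes part in RNA polymerase I transcription, had 76.7, 78.4 and 70.2 CPM in the cKO-labelled libraries 1, 2 and 3, against 77.8, 81.8 and 84.6 CPM in the control-labelled libraries 1, 2 and 3 (log2 fold change -0.12, edgeR adjusted p 0.243). Rrp12, a repeat protein known in yeast for late steps of subunit export, had 43.7, 41.2 and 40.6 CPM in libraries labelled cKO, against 45.0, 48.0 and 44.3 CPM in those labelled control (log2 fold change -0.13, edgeR adjusted p 0.289). The Rrp12 groups did not overlap, while those of Heatr1 did. Without the library labelled cKO 3 the log2 fold change of Heatr1 was -0.07 (edgeR adjusted p 0.604), and without both cKO 2 and control 2 that of Rrp12 was -0.08 (adjusted p 0.840). Utp3, Utp4, Utp14a, Utp15, Utp18 and Wdr43, further processome proteins, lay between -0.02 and 0.09 on the log2 scale of fold change. Nop14, the processome partner of Emg1, stood at -0.02, and Nat10, which acetylates cytidine in the small subunit RNA, at -0.05.

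Among large subunit genes, Rrs1, which helps bring the small ribosomal RNA of the large subunit into the particle, came closest to the threshold. It had 47.2, 46.8 and 45.3 CPM in the cKO-labelled libraries 1, 2 and 3, against 38.6, 38.0 and 41.9 CPM in the control-labelled libraries 1, 2 and 3. No libraries overlapped between the groups, and the log2 fold change was 0.23 (standard error 0.06, edgeR adjusted p 0.0672). Without the library labelled control 3 the value was 0.28 with an edgeR adjusted p of 0.0117. DESeq2, which called 9.61% of the genes it gave an adjusted p, called Rrs1 at 0.0257 and Polr1a at 0.0206.

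The remaining large subunit genes, 7 of the 8, lay between -0.07 and 0.07 on the log2 scale of fold change. Pes1, Bop1 and Wdr12 form one complex needed to mature the large subunit. Pes1 was at 115 ± 1.26 CPM in libraries labelled cKO and 109.9 ± 5.44 CPM in those labelled control (SD, n = 3 each). Bop1 was at 55.5 ± 2.41 CPM in libraries labelled cKO and 54.9 ± 3.03 CPM in those labelled control. Wdr12 was at 33.8 ± 0.86 CPM in libraries labelled cKO and 33.9 ± 0.67 CPM in those labelled control. Nop2, a methyltransferase of the large subunit RNA, had a log2 fold change of -0.01, and Nop16 of 0.02. Rrp1 was at 0.06 and Rrp1b, its paralogue, at -0.07.

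The nucleolar proteins with several roles held the members with the highest CPM, Ncl and Npm1, and 0 of the 6 passed an unadjusted p of 0.05 in edgeR. Ncl, which encodes nucleolin, had 545, 550 and 543 CPM in the cKO-labelled libraries 1, 2 and 3, against 544, 548 and 561 CPM in the control-labelled libraries 1, 2 and 3. The groups overlapped and the interval of the log2 fold change was -0.12 to 0.09. Npm1, which encodes nucleophosmin, had 381, 403 and 386 CPM in libraries labelled cKO and 351, 365 and 382 CPM in those labelled control, and its log2 fold change, 0.09, did not pass (edgeR adjusted p 0.404). Gnl3, the nucleostemin gene of stem and progenitor cells, stood at 0.11 (interval -0.02 to 0.25). The nucleolar chaperone Nolc1, the RNA helicase Ddx21 and Mybbp1a, a regulator of ribosomal DNA transcription, stood at -0.04, -0.06 and 0.0030.

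**Figure D2:**
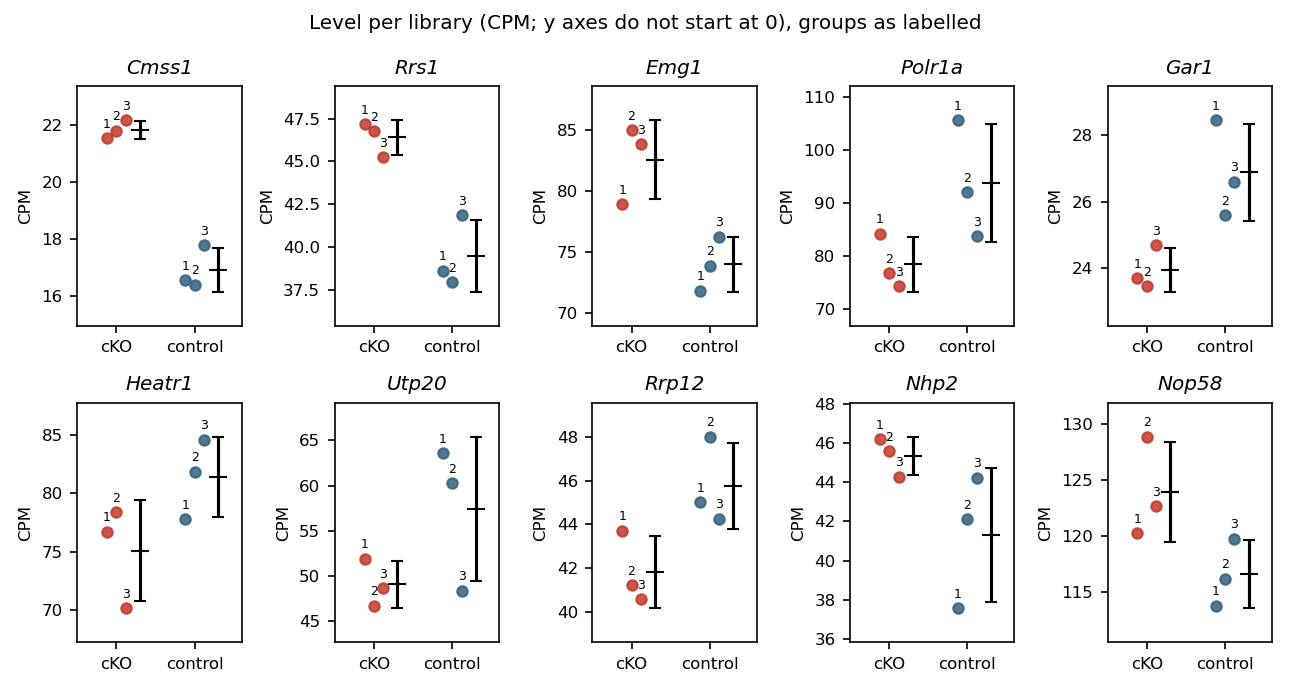
CPM in each library (y axes differ and do not start at 0) for the 10 members with the smallest unadjusted p, libraries labelled cKO on the left and labelled control on the right of each panel, with replicate numbers beside the points and bars for mean ± SD (n = 3). For Cmss1 the libraries labelled cKO lie at 21.5 to 22.2 CPM and those labelled control at 16.4 to 17.8 CPM, while for Polr1a and Utp20 the library labelled control 3 lies within the range of the other group.

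Between genes, levels can be compared only per length of transcript. In CPM per kilobase of summed exon, averaged over all 6 libraries, Npm1 was highest at 142, followed by Rrp1 at 55.4, Ncl at 53.8, Mybbp1a at 41.8, Ubtf at 39.2 and Nhp2 at 37.8. The lowest were Rrp1b at 5.74, Utp20 at 5.22 and Wdr12 at 2.83, so the highest level was 50.1 times the lowest. Of the 39 pairs of neighbours in this order, 32 had ranges over the libraries that overlapped, Rrp1 and Ncl among them. Summed exons include rare transcript forms, and with the length of the principal transcript (the longest at the best APPRIS rank in the annotation) in their place 7 of the top 10 members stayed in the top 10. Npm1 and Rrp1 were first and second and Wdr12 last by both lengths, while Nop58 moved by 20 places.

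**Figure D3:**
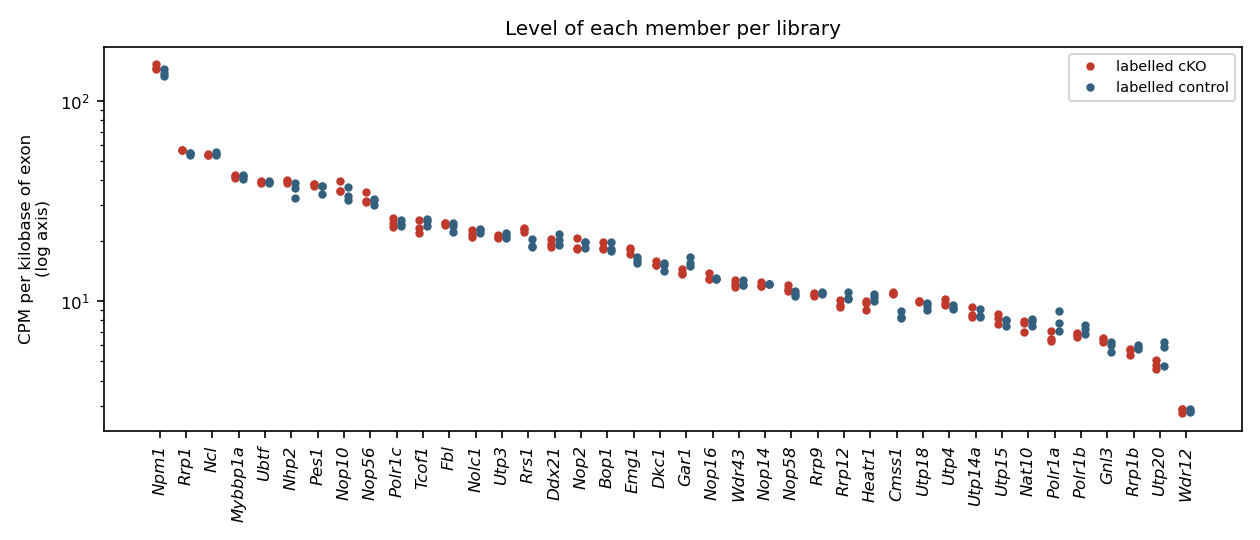
Level of each member in each library as CPM per kilobase of summed exon (log axis), members ordered from highest to lowest, with red points for the 3 libraries labelled cKO and blue points for the 3 labelled control. Levels spread over 50.1-fold between members, from 142 for Npm1 to 2.83 for Wdr12.

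Within a group the members varied little between animals. The median coefficient of variation over members was 3.55% in libraries labelled cKO and 4.14% in those labelled control, beside 4.13% and 4.31% over tested genes in the members' range of mean CPM. The library labelled cKO 2 held the highest value of 11 members and control 1 of 9, and the lowest values fell most often in control 1 (11 members) and cKO 3 (10 members). Over all genes, 21.7% had their highest value in cKO 2 and 22.3% in control 1, and 23.6% had their lowest in control 1 and 17.5% in cKO 3. Across the 6 libraries, the members with the pattern most like that of Cmss1 were Rrs1 (Pearson's r of log2 CPM 0.966), Emg1 (0.929) and Rrp1 (0.925). Of all tested genes with a count in every library, those most like it were Lsm8 (0.995), Tpt1-ps6 (0.992), Zfp110 (0.992), Nab1 (0.990) and Chtop (0.990). These are the highest values of many and are given as a description of 6 libraries.

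The fold change of a member went with the length of its transcript. Over the 40 members, log2 fold change and principal transcript length had a Spearman correlation of -0.63, and the value for summed exon length was -0.39, beside -0.32 and -0.27 over all tested genes. All points share the same 6 libraries, so the values are a description. Of the 15 members with summed exons of 5000 bases or more, 11 had a negative log2 fold change (median -0.05), as did 4210 of the 6402 tested genes of that length (median -0.05). Of the 25 shorter members 17 had a positive one (median 0.04), as did 6461 of 10849 shorter genes (median 0.04). This limit of 5000 bases was chosen after the values were seen. With offsets that take out the trend on principal transcript length, the correlation over members was -0.16, Cmss1 stood at 0.29 (edgeR adjusted p 0.112) and 0 members passed, with 6 at an unadjusted p under 0.05. With summed exon length, Cmss1 stood at 0.31 (adjusted p 0.0798), and 0 members passed, with 7 at an unadjusted p under 0.05. That fit called 0.220% of all genes. Some other members shrank by a larger ratio than Cmss1 with the principal transcript offsets. Log2 fold changes there were -0.12 for Polr1a, -0.10 for Utp20, -0.03 for Heatr1, 0.07 for Emg1, 0.05 for Nhp2 and 0.03 for Nop58, each smaller in size than its value without offsets by over 1.5 times. Gar1 instead grew in size, from -0.17 to -0.24 with either offset. With the summed exon offsets the values were -0.17 for Polr1a, -0.16 for Utp20, -0.07 for Heatr1 and 0.06 for Nhp2. Emg1 stayed at 0.16, and Nop58 rose to 0.16.

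**Figure D4:**
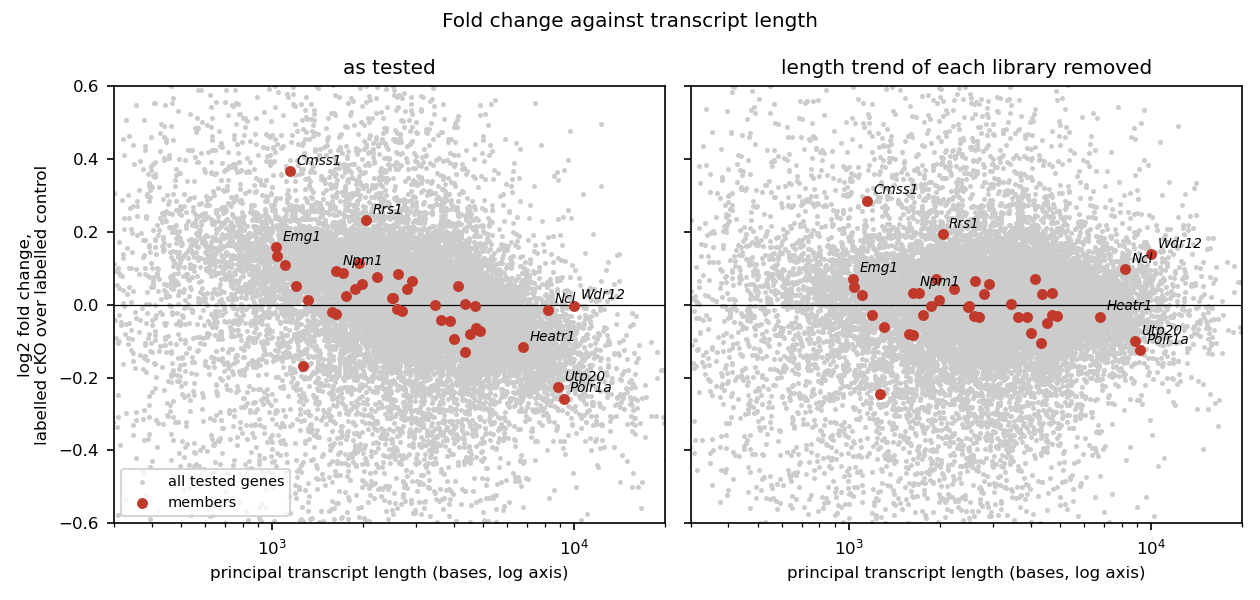
Log2 fold change, labelled cKO over labelled control (y axis), against principal transcript length in bases (x axis, log scale), with members in red over all tested genes in grey. Left is the fit as tested, with a Spearman correlation over members of -0.63, and right the fit with each library's length trend removed, with -0.16.

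The wider pathway was read from 106 further ribosome biogenesis genes, all of them tested. None passed in edgeR, while 17 higher and 3 lower in libraries labelled cKO had an unadjusted p under 0.05. That was 18.9%, beside 16.5% of all tested genes and 25.4% of those within the members' range of mean CPM. That range was not matched to this list, and some of its genes, such as Taf1a and Polr1e, lay below it. The median CPM was 37.4 over the 106 genes and 58.9 over the tested genes within the range. DESeq2 called 3 of the 106 (Bms1, Dhx37 and Mdn1) and limma-voom 0. Of the 106, 80 had a positive log2 fold change, with a median of 0.07, beside medians of 0.0075 over the 40 members and 0.00073 over all tested genes. With the exon length trend removed, 71 of the 106 were positive and the median was 0.05. The median summed exon length of these genes was 3842 bases, against 3922 over all tested genes. Principal transcript length, which had the stronger correlation with fold change, was not compared for this list.

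Small subunit genes in this wider list held the smallest p-values, and these were in the lower direction. Bms1, a GTPase of the processome, had 72.7, 72.1 and 67.9 CPM in the cKO-labelled libraries 1, 2 and 3, against 84.8, 78.0 and 79.6 CPM in the control-labelled libraries 1, 2 and 3 (log2 fold change -0.19, edgeR adjusted p 0.0628). Dhx37, a helicase that acts on the processome, had 52.9, 50.4 and 51.7 CPM in libraries labelled cKO, against 61.1, 58.2 and 57.0 CPM in those labelled control (log2 fold change -0.19, edgeR adjusted p 0.0768). Neither gene overlapped between the groups. None of the other genes named by the same rule passed, and all had positive log2 fold changes. They were the RNA polymerase I subunit genes Polr1e (0.28, adjusted p 0.139) and Twistnb (0.21, adjusted p 0.154), Nip7 (0.23, adjusted p 0.127) and Senp3 (0.14, adjusted p 0.115) of large subunit assembly, and Ruvbl1 (0.14, adjusted p 0.175) and Snu13 (0.13, adjusted p 0.198) of small nucleolar particle assembly, with adjusted p-values from edgeR. Without the library labelled control 3, Dhx37, Mdn1 and Polr1e passed, when 778 genes passed in all, and without cKO 1 Bms1 passed, when 361 did. Without control 1 the log2 fold changes of Twistnb and Nip7 were 0.14 and 0.15, and with the summed exon offsets that of Ruvbl1 was 0.08.

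**Figure D5:**
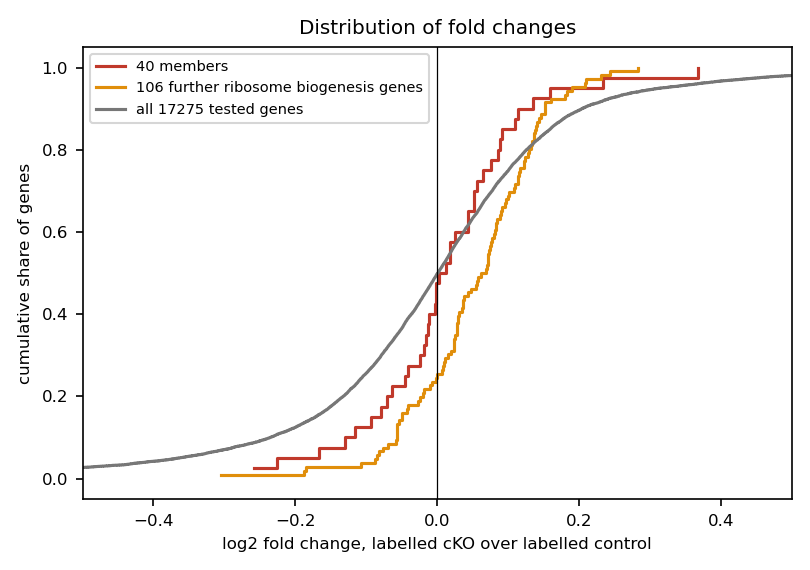
Cumulative share of genes (y axis) by log2 fold change, labelled cKO over labelled control (x axis), for the 40 members, the 106 further genes and all 17275 tested genes. The members cross 0 near the curve of all genes (medians 0.0075 and 0.00073), and the wider list lies to the right, with a median of 0.07.

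Some counts of this set are less certain than others. Transcripts of Ddx21, Fbl, Nop56, Npm1, Pes1 and Wdr12 align over at least 300 bases at 95% identity or more with other annotated genes, whose own counts reached at most 72 in a library. Exons of 17 members overlap another gene other than a small nucleolar RNA, by at most 11.5% of their length (Utp14a), and Cmss1, Rrs1, Gar1, Utp20 and Rrp12 are not among them. Inside 6 members (Dkc1, Gnl3, Ncl, Nop56, Nop58 and Wdr43) the annotation places 19 small nucleolar RNA genes, which are known to be released from the introns of such hosts. None of the 19 passed the filter on low counts, with at most 12 counts in a library. Some, such as Snora75 and Snord57, also overlap annotated exons of their host and had 0 counts in every library. How reads shared with the host were counted is not stated in the labels.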

How the data were processed

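The members and gene lists were chosen with earlier results of these data known. The labels' protocols describe depletion of ribosomal RNA, a directional library kit and paired-end sequencing. The submitters' processing notes name cutadapt 2.8, STAR 2.7.6a, featureCounts 1.5.1, DESeq2 1.32.0 and mm10, and no settings.

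The authors deposited raw counts per gene for each library. A further table holds the authors' own comparison. Per the file headers it gives a mean normalized count per gene (a signal value), log2 fold change and standard error, a test statistic (a score), and the p-value before and after adjustment. The adjusted one is missing for 13487 of 21080 genes, and the lowest mean with one is 658.

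Genes were filtered with filterByExpr and tested with edgeR 4.0.16 (R 4.3.3) by its robust quasi-likelihood test, with TMM scaling and genotype as the one term. P-values were adjusted by Benjamini-Hochberg over all 17275 tested genes and called at 0.05. CPM use TMM-scaled library sizes, and standard errors come from the F statistic. The replicates are separate animals of 1 litter, per the labels. None was a duplicate, since counts of libraries of the same group differed beyond sampling noise (chi-square over its degrees of freedom 7.39 to 12.5). Lengths, positions and overlaps came from GENCODE M21 on mm10, which held 55227 of the genes. Full statistics are given for members past the threshold and the 10 with the smallest unadjusted p, and in each wider list for the 2 genes with the smallest p. Alternatives were RLE and upper quartile scaling, other filters, no robust estimation, DESeq2 1.42.0, limma-voom (limma 3.58.1), labelled sex, a replicate block, length offsets (lowess span 0.3) and leaving out libraries. The offsets and levels by principal transcript length were added after seeing the data.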

Additional observations from a re-analysis of the deposited data

How the results depend on the processing

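All genes called numbered 135 in the fit described. They numbered 742 with no filter on low counts, 83 with at least 1 CPM in 3 libraries, 10 without robust estimation, 566 with DESeq2, 13 with limma-voom, 38 and 40 with length offsets by summed exons and by principal transcript, and 9 without the libraries labelled cKO 2 and control 2. Leaving out 1 library gave 19 to 778, with 778 without control 3, 361 without cKO 1 and at most 34 without any other. Members past the threshold numbered 4 with no filter (Cmss1, Polr1a, Rrs1 and Utp20), 2 with DESeq2 (Polr1a and Rrs1), which gave Cmss1 no adjusted p, and 0 to 4 with 1 library left out. They numbered 0 without robust estimation, with limma-voom, with either length offset and without the libraries labelled cKO 2 and control 2. Unadjusted p-values under 0.05 then numbered 8, 8, 7 (summed exons), 6 (principal transcript) and 3. Without robust estimation the edgeR adjusted p of Cmss1 was 0.103, and with limma-voom 0.0974. Of the 106 wider genes 2 passed with no filter, 3 with DESeq2 and 0 to 3 with 1 library left out. The median log2 fold change of members was 0.0075 in the fit described, -0.00449 with principal transcript offsets (19 positive and 21 negative), and -0.00214 to 0.0191 with 1 library left out, the highest without cKO 1. No log2 fold change of the named members, the named wider genes or Foxp1 changed sign in any alternative that gave an adjusted p.

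Replicate numbers did not pair the libraries throughout. Deviations of same-numbered libraries from their group means correlated at 0.0853, -0.0515 and 0.199. The libraries labelled cKO 1 and cKO 3 correlated best with the control of the same number, while cKO 2 correlated best with control 1 (0.172). Whether the libraries were paired was not tested further. With the replicate number as a block, 1065 genes passed, 4 members (Cmss1, Emg1, Polr1a and Rrs1) and 4 wider genes. The lowest count of a member in a library was 396.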
